A study of Mus musculus with 6 samples.

Results

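The AP-1 and EGR transcription factors are 10 genes, Fos, Fosl1, Fosl2, Jun, Junb, Jund, Egr1, Egr2, Egr3 and Atf3, taken by their symbols from the 54347 gene rows of the deposited expression table. Each symbol stood on 1 row. Of the 10 genes, 7 had a mean over the libraries of at least 1 TPM, a transcript level corrected for length, with every library brought to one total, and entered the test of 12652 genes, while Fosl1, Egr1 and Egr3 fell under that minimum and are described by their values alone. The cells were primary microglia cultured from forebrains of C57BL/6 mouse pups, 3 libraries from Plcg2-/- and 3 from Plcg2+/+ littermates, at postnatal day 2-3. Plcg2 encodes phospholipase C gamma 2, a signalling enzyme of immune receptors, and the series asks how gene expression differs without it. Both genotypes had the same culture, which limits them as a model of microglia in the brain: mixed glia were grown with serum and the myeloid growth factor GM-CSF, loosely attached microglia were shaken off and then kept in low serum with a lower dose of GM-CSF for days before RNA was taken. The labels do not say whether each library is a separate pup or culture, so p-values measure the spread between these libraries, which may be technical. The log2 of the summed TPM (plus 1) of 4 Y-linked genes was 5.90, 0.83 and 1.00 in Plcg2-/- libraries 1 to 3 and 0.46, 6.76 and 6.81 in Plcg2+/+ libraries 1 to 3, so that 1 Plcg2-/- and 2 Plcg2+/+ libraries stood high. With that level as a covariate Egr2, Fos and Atf3 were still called lower.

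AP-1 is a dimer of basic leucine zipper proteins, in which a protein of the Fos family pairs with one of the Jun family or 2 Jun proteins pair, and the related factor Atf3 can join them. EGR proteins bind GC-rich DNA through zinc fingers. Many of these genes are immediate early genes: they are switched on within minutes by kinase and calcium signals, through serum response factor and CREB at their promoters, and their messages decay fast. In myeloid cells Fos is needed for osteoclast formation, and Egr1 and Egr2 act in macrophage differentiation.

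Egr2, Fos and Atf3 fell in Plcg2-/- microglia, so stretches of their promoters are shown here with motif matches in capitals. The 3 promoters hold a short element that was chosen after these values were seen. Whether it bears on the fall was not tested. Each line is a stretch of 30 bases on the gene's own strand from the RefSeq promoter table for GRCm38.p6. Positions count from the RefSeq transcription start, with -1 as the base before it.
Fos, chr12:85473812-85473841, plus strand, bases -78 to -49: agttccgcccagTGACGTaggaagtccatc
Egr2, chr10:67537795-67537824, plus strand, bases -74 to -45: gtCCATATATGGgcagcgACGTCAcgggta
Atf3, chr1:191183324-191183353, minus strand, bases -20 to 10: attaatagcattACGTCAgcctgggattgg
The element TGACGT is the core of the cyclic AMP response element, the sequence bound by CREB and ATF proteins, and it reads ACGTCA on the other strand. It lay at bases -66 to -61 of Fos, -56 to -51 of Egr2 and -8 to -3 of Atf3. The Egr2 stretch also held a CArG box, the site of serum response factor, at bases -72 to -63.

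The wider Fos promoter, with that match in capitals, is given for context because it holds the sequence from base -250 to base -1, at chr12:85473640-85473889.
Fos: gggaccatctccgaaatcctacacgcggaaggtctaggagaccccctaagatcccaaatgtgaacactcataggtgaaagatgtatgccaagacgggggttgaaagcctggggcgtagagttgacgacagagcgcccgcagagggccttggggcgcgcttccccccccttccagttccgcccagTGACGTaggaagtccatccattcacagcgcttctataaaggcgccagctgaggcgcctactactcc
Windows of 250 bases before to 50 after a start were in the table for 7 of the 10 genes; for Egr2, which had 5 windows, the one nearest the start of the first GENCODE transcript was used. Searched on both strands, TGACGT was found in 3 of the 7 windows, those of Fos, Egr2 and Atf3, and in 7.51% of 32817 windows of the same length genome-wide. The CArG box was found in the Egr2 window and in 1.63% of all windows. Bases further than 250 before the start were not searched. No match in the Fos window thus does not show that Fos lacks a CArG box. The EGR site GCGNGGGCG was found in the Fosl2 window, at bases -79 to -71, and in 5.56% of all windows. The AP-1 site TGANTCA, in 7.81% of all windows, was in none of the 7. The Jund and Fosl2 windows start 1210 and 671 bases from the first GENCODE transcript's start. The lack of a TGACGT match in them thus says little. Of the windows without TGACGT, only those of Jun and Junb start near that transcript's start, at 0 and 30 bases. The Egr2 and Atf3 starts used, 67537869 and 191183333, lie inside the gene spans, which begin at 67535475 and, on the minus strand, 191218039. Which start gives the transcripts cannot be read from TPM per gene. The elements were chosen after the expression values were seen, and a match of letters does not show that a protein binds there.

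Plcg2 itself, the check of the labels, stood at 16.05, 16.7 and 16.1 TPM in Plcg2-/- libraries, against 45.2, 39.7 and 54.9 TPM in Plcg2+/+ libraries. Its groups did not overlap, and transcript remained in the Plcg2-/- libraries. Of 10 microglial markers, Csf1r stood at 502.5 TPM or more and Ptprc at 236 TPM or more in every library. Tmem119 reached at most 1.47 TPM and Sall1 at most 0.371 TPM in any library, so these defining markers of brain microglia were near 0 in both genotypes. Cx3cr1 stood at 0.0763 to 0.33 TPM in Plcg2-/- and 1.34 to 2.92 TPM in Plcg2+/+ libraries. Of the 8 tested microglial markers, 3 were higher and 2 lower in Plcg2-/- libraries, against 15.6% higher and 5.31% lower of all tested genes. Those higher were Fcrls (37.3 TPM in Plcg2-/- and 2.80 TPM in Plcg2+/+ libraries on average), P2ry12 (23.8 TPM in Plcg2-/- and 5.68 TPM in Plcg2+/+) and Aif1 (99.6 TPM in Plcg2-/- and 19.0 TPM in Plcg2+/+). Those lower were Itgam (81.8 TPM in Plcg2-/- and 429 TPM in Plcg2+/+) and Cx3cr1 (0.244 TPM in Plcg2-/- and 2.06 TPM in Plcg2+/+). Cx3cr1 reached the minimum mean of 1 TPM for the test only through the Plcg2+/+ libraries. The summed level of 8 astrocyte markers was 43.0 to 59.6 TPM in Plcg2-/- and 30.4 to 60.5 TPM in Plcg2+/+ libraries. Most of it came from Aldh1l1 and Aldoc, while Gja1, Aqp4, Slc1a2 and Slc1a3 reached at most 1.73 TPM in any library. Gfap reached at most 5.15 TPM and S100b 3.51 TPM. The summed level of 7 oligodendrocyte lineage markers was 47.2 to 84.7 TPM in Plcg2-/- and 41.0 to 109 TPM in Plcg2+/+ libraries. That of 6 neuronal markers was 3.92 to 9.09 TPM in Plcg2-/- and 2.86 to 9.87 TPM in Plcg2+/+ libraries. Fibroblast markers summed to at most 3.07 TPM and lymphocyte markers to at most 0.355 TPM in any library, with Cd3e and Cd3d at 0. Endothelial markers summed to 19.3 to 28.5 TPM in Plcg2-/- and 16.0 to 23.5 TPM in Plcg2+/+ libraries. Neutrophil markers summed to 24.0 to 46.9 TPM in Plcg2-/- and 18.8 to 75.0 TPM in Plcg2+/+ libraries, so that both sums overlapped. S100a8, at 17.4 to 74.7 TPM, made up most of the neutrophil sum. Ly6g was at 0 in every library, while Mpo reached at most 0.0585 TPM and S100a9 1.47 TPM. Of the endothelial markers, Cdh5 and Cldn5 reached at most 0.766 TPM. Single markers within the sums differed: Kdr (19.3 TPM in Plcg2-/- and 5.89 TPM in Plcg2+/+) and the astrocyte marker Aldh1l1 (28.3 TPM in Plcg2-/- and 12.3 TPM in Plcg2+/+) were called higher, and Flt1 (3.65 TPM in Plcg2-/- and 12.5 TPM in Plcg2+/+) lower. The part of such cells in the results was not tested. Mitochondrially encoded transcripts took 7.30 ± 2.01% of TPM in Plcg2-/- and 15.5 ± 1.87% in Plcg2+/+ libraries (SD, n = 3 each). In bulk RNA, fewer cells that express a gene and less RNA per cell cannot be told apart.

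Of the 7 tested genes, 3 fell and 0 rose in Plcg2-/- microglia (limma on log2(TPM + 1), Benjamini-Hochberg adjusted p below 0.05 over all genes tested). Across all 12652 genes, 5.31% were called lower and 15.6% higher. At an unadjusted p below 0.05, 5 of the 7 were lower and 0 higher, against 9.13% lower and 28.5% higher of all tested genes. All 3 Plcg2-/- values lay below all 3 Plcg2+/+ values for 6 of the 7 genes, against 10.9% of all tested genes. The median log2 fold change of the 7 genes was -0.37, against 0.19 over all tested genes.

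**Figure D1:**
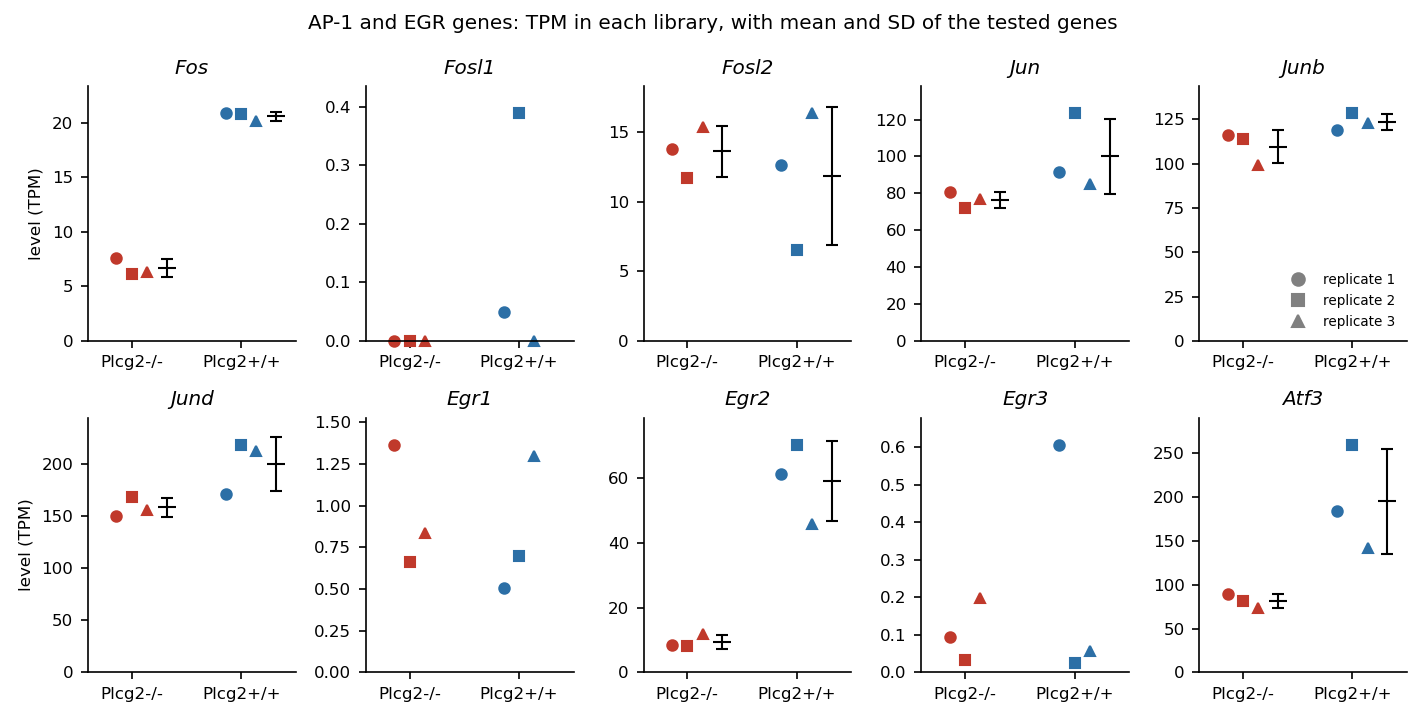
Level in TPM (y axis, linear from 0, its own scale for each gene) of the 10 AP-1 and EGR genes in each Plcg2-/- (red, left) and Plcg2+/+ (blue, right) library, with the mean and SD (n = 3) in black for the 7 tested genes. The groups are far apart for Egr2, Fos and Atf3, close but not overlapping for Jun, Junb and Jund, and overlapping for Fosl2, Egr1, Egr3 and Fosl1.

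Egr2 had the largest log2 fold change of the 7 tested genes. Egr2 (ENSMUSG00000037868.15) encodes a zinc finger factor; its gene spans positions 67535475 to 67542188 of GRCm38 chromosome 10, on the plus strand. It stood at 8.33, 8.12 and 11.9 TPM in Plcg2-/- libraries, against 61.3, 70.2 and 45.7 TPM in Plcg2+/+ libraries. Every Plcg2-/- value was well below every Plcg2+/+ value, and replicate 3 was the highest of its group in Plcg2-/- and the lowest in Plcg2+/+. The mean was 9.45 ± 2.12 TPM in Plcg2-/- and 59.1 ± 12.4 TPM in Plcg2+/+ microglia (SD, n = 3 each), a ratio of 0.160. Egr2 fell by 2.52 ± 0.21 (SE) on the log2(TPM + 1) scale (limma adjusted p = 0.00096) and had the 68th lowest of the 12652 log2 fold changes.

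The other EGR genes were hardly expressed. Egr1, the most studied immediate early member of the family, stood at 1.36, 0.663 and 0.835 TPM in Plcg2-/- libraries and at 0.509, 0.70 and 1.299 TPM in Plcg2+/+ libraries. Egr3, which in T cells acts with Egr2, stood at 0.0937, 0.0339 and 0.198 TPM in Plcg2-/- libraries and at 0.607, 0.0262 and 0.0581 TPM in Plcg2+/+ libraries. Both groups overlapped for Egr1 and Egr3. Egr2 made up 89.7 ± 4.01% of the summed Egr1, Egr2 and Egr3 TPM in Plcg2-/- and 98.1 ± 0.935% in Plcg2+/+ libraries (SD, n = 3 each). The family sum was 10.5 ± 2.15 TPM in Plcg2-/- and 60.1 ± 12.1 TPM in Plcg2+/+ libraries.

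In the Fos family, Fos fell and Fosl2 did not pass the test. Fos (ENSMUSG00000021250.13, GRCm38 chromosome 12, positions 85473890 to 85477273, plus strand) encodes the founding Fos protein. It stood at 7.59, 6.12 and 6.34 TPM in Plcg2-/- libraries, against 20.8, 20.8 and 20.1 TPM in Plcg2+/+ libraries. The values were tight in both genotypes and far apart between them. The mean was 6.69 ± 0.788 TPM in Plcg2-/- and 20.6 ± 0.405 TPM in Plcg2+/+ microglia (SD, n = 3 each), a ratio of 0.325. Fos fell by 1.49 ± 0.12 (SE) on the log2(TPM + 1) scale (limma adjusted p = 0.00096), the 230th lowest log2 fold change.

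Fosl2, also called Fra-2, stood at 13.8, 11.7 and 15.3 TPM in Plcg2-/- and at 12.6, 6.52 and 16.3 TPM in Plcg2+/+ libraries. The groups overlapped, and Plcg2+/+ 2 was the lowest of the 6. The log2 fold change was 0.26, with a 95% interval of -0.45 to 0.97 (limma adjusted p = 0.56), and with Plcg2+/+ 2 left out it was -0.08. Fosl1, or Fra-1, was listed at 0 in all 3 Plcg2-/- libraries and at 0.0494, 0.389 and 0 TPM in Plcg2+/+ libraries. As the plot of family sums shows, Fos made up 33.0 ± 3.32% of the summed Fos, Fosl1 and Fosl2 TPM in Plcg2-/- and 64.1 ± 10.1% in Plcg2+/+ libraries (SD, n = 3 each), with no overlap. The larger share belonged to Fosl2 in each Plcg2-/- library and to Fos in each Plcg2+/+ library.

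**Figure D2:**
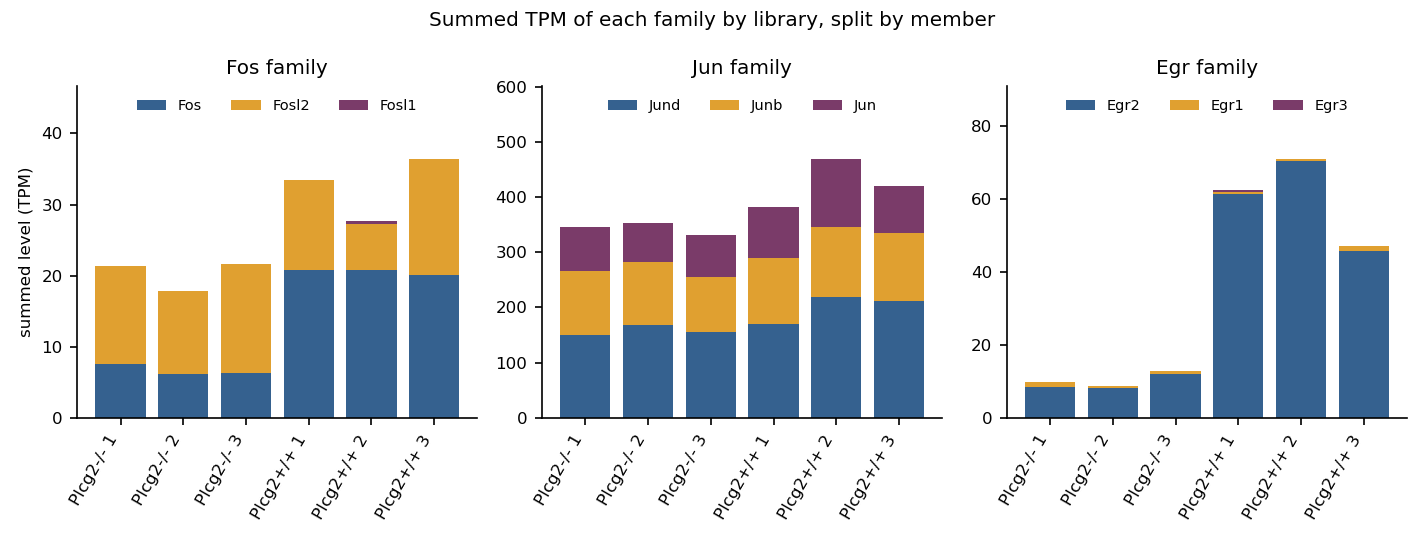
Summed level in TPM (y axis, linear from 0) of the Fos, Jun and Egr families in each library (x axis, Plcg2-/- left of Plcg2+/+), with bar segments for the members. Each panel has its own y scale. By the ratio of means, Plcg2-/- over Plcg2+/+, Fos (blue, left panel, 0.325) and Egr2 (blue, right panel, 0.160) differ most of the tested genes shown. In TPM, Jund (158 in Plcg2-/- and 200 in Plcg2+/+ on average) and Jun (76.3 and 100) differ by more than Fos (6.69 and 20.6). The Jun family sums are 331 to 354 TPM in Plcg2-/- and 381 to 470 TPM in Plcg2+/+ libraries.

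Atf3 (ENSMUSG00000026628.13, GRCm38 chromosome 1, positions 191170296 to 191218039, minus strand) encodes a stress-induced ATF protein that restrains cytokine genes in macrophages. It stood at 89.6, 81.5 and 72.9 TPM in Plcg2-/- libraries, against 184, 259 and 142 TPM in Plcg2+/+ libraries. The groups did not overlap, and the Plcg2+/+ libraries spread more widely, with Plcg2+/+ 2 the highest. The mean was 81.3 ± 8.32 TPM in Plcg2-/- and 195 ± 59.6 TPM in Plcg2+/+ microglia (SD, n = 3 each), a ratio of 0.417. Atf3 fell by 1.21 ± 0.22 (SE) on the log2(TPM + 1) scale (limma adjusted p = 0.0125). Leaving out Plcg2-/- 1, Plcg2-/- 3 or Plcg2+/+ 1 gave Atf3 a limma adjusted p of 0.0511, 0.055 or 0.0513, so that 2 of the 7 genes were then called lower.

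The Jun genes and Atf3 were the most abundant of the 10. Jun stood at 80.5, 71.9 and 76.7 TPM in Plcg2-/- libraries, against 91.6, 123 and 85.2 TPM in Plcg2+/+ libraries. Junb, which opposes or replaces Jun at some promoters, stood at 116, 114 and 99.0 TPM in Plcg2-/- libraries, against 119, 128 and 123 TPM in Plcg2+/+ libraries. Jund, the Jun protein most steadily expressed in resting cells, stood at 150.2, 168 and 156 TPM in Plcg2-/- libraries, against 171, 218 and 212 TPM in Plcg2+/+ libraries. In each case the Plcg2-/- values lay just below the Plcg2+/+ values without overlap, the nearest pair being 168 TPM in Plcg2-/- 2 and 171 TPM in Plcg2+/+ 1 for Jund.

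None of the 3 Jun genes passed the test. The log2 fold change was -0.37 for Jun (95% interval -0.74 to -8.9e-05, limma adjusted p = 0.133). It was -0.17 for Junb (interval -0.43 to 0.08, limma adjusted p = 0.28) and -0.33 for Jund (interval -0.64 to -0.03, limma adjusted p = 0.11). Here the scaling of the libraries mattered: over the 12652 genes the median change was 0.19 on deposited TPM, -0.0045 after median-of-ratios scaling and 0.00995 after quantile normalization. Median-of-ratios scaling gave -0.58 for Jun, -0.39 for Junb and -0.55 for Jund, of which Jund passed (limma adjusted p = 0.0402). Quantile normalization gave -0.67, -0.46 and -0.60, all 3 past the threshold (limma adjusted p = 0.0475, 0.0374 and 0.0282), and 6 of the 7 genes were then called lower. The shares of the family sum overlapped between genotypes for each Jun gene, Jund holding 46.0 ± 2.31% in Plcg2-/- and 47.2 ± 2.95% in Plcg2+/+ libraries (SD, n = 3 each).

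Egr2, Fos and Atf3 were lower under each of these scalings. With TPM rescaled without mitochondrially encoded genes, whose share moved with genotype, the log2 fold change was -2.66 for Egr2, -1.63 for Fos and -1.35 for Atf3 (limma adjusted p = 0.00101, 0.000729 and 0.0109). Egr2 and Fos passed the threshold in all 17 alternatives tried and Atf3 in 14.

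**Figure D3:**
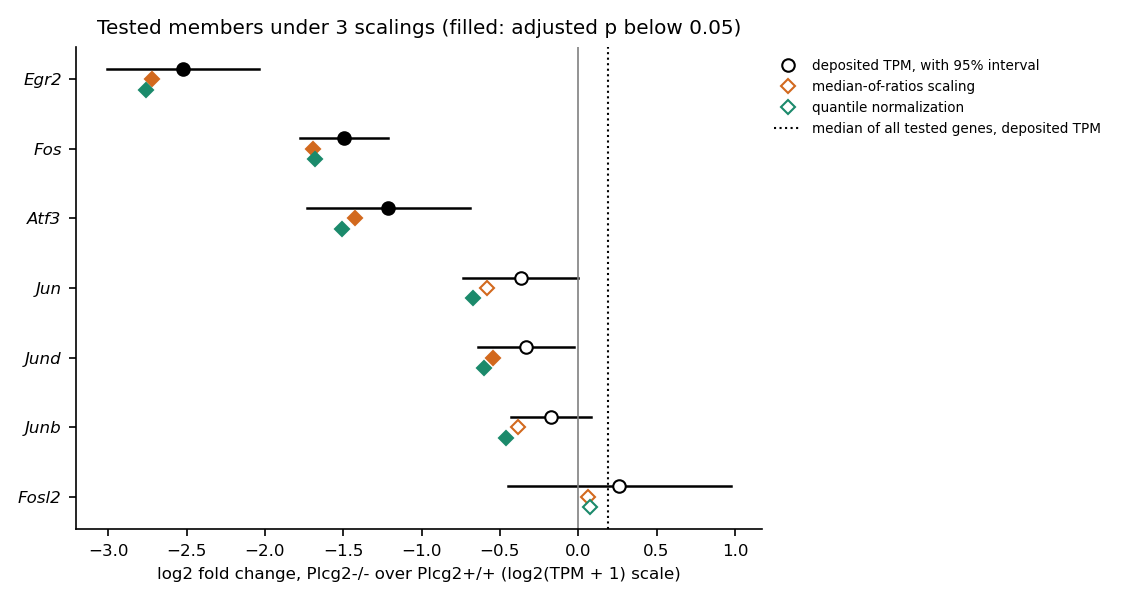
Log2 fold change of Plcg2-/- over Plcg2+/+ libraries from log2(TPM + 1) values (x axis) for the 7 tested genes: circles with 95% intervals for deposited TPM, diamonds for median-of-ratios scaling (orange) and quantile normalization (green), filled where the limma adjusted p was below 0.05. The dotted line is the median of all tested genes, at 0.19 on deposited TPM; Egr2, Fos and Atf3 are filled under all 3 scalings and Fosl2 under none.

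TPM is per transcript length, so the levels can be ranked across genes. In Plcg2-/- libraries the order by mean was Jund, Junb, Atf3, Jun, Fosl2, Egr2, Fos, Egr1, Egr3 and Fosl1, and the library values of neighbours overlapped between Atf3 and Jun and between Fosl2 and Egr2. In Plcg2+/+ libraries it was Jund, Atf3, Junb, Jun, Egr2, Fos, Fosl2, Egr1, Egr3 and Fosl1, with overlap between Jund and Atf3, Junb and Jun, Egr1 and Egr3, and Egr3 and Fosl1. Atf3 thus stood beside Jun in Plcg2-/- and beside Jund in Plcg2+/+ libraries. The TPM ratio of Fos to Jun was 0.0874 ± 0.00605 in Plcg2-/- and 0.211 ± 0.0368 in Plcg2+/+ libraries (SD, n = 3 each).

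Likeness of profile was measured as the root mean square difference of log2(TPM + 1) values, each gene centred on its mean over the 6 libraries. It was taken among 8483 protein-coding genes with a mean of at least 5 TPM. This measure includes the genotype difference, so genes nearest to a called gene share its fold change by construction. The genes nearest to Egr2 were the integrin gene Itgam (0.096), the receptor tyrosine kinase gene Met (0.143) and Nkain1 (0.149). Itgam averaged 81.8 ± 15.9 TPM in Plcg2-/- and 429 ± 76.5 TPM in Plcg2+/+ libraries (SD, n = 3 each). Nearest to Fos were the glutamine transporter gene Slc1a5 (0.108), Setd4 (0.142) and Arhgap25 (0.147). Nkain1 averaged 1.16 TPM in Plcg2-/- and 11.4 TPM in Plcg2+/+ libraries, and Setd4 4.20 TPM in Plcg2-/- and 15.7 TPM in Plcg2+/+. Both reached the minimum of 5 TPM only through the Plcg2+/+ libraries. Nearest to Atf3 were the myosin gene Myo1e (0.111), the membrane protease gene St14 (0.114) and the DNA methyltransferase gene Dnmt3a (0.125). Among the 7 tested genes themselves, the closest pair was Junb and Jund (0.143), followed by Jun and Jund (0.18), while Fos was closest to Atf3 (0.284).

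Other dimer partners of the leucine zipper class moved both ways. Of 12 tested genes of other AP-1 and related factors, 4 rose and 1 fell, with a median log2 fold change of 0.26. Across all tested genes, 15.6% were called higher and 5.31% lower, with a median of 0.19. Batf, an AP-1 factor that lacks an activation domain, averaged 33.6 ± 5.60 TPM in Plcg2-/- and 12.1 ± 4.29 TPM in Plcg2+/+ libraries (SD, n = 3 each; log2 fold change 1.44 ± 0.26 SE, limma adjusted p = 0.0117). Batf2, an interferon-induced relative, averaged 15.0 ± 4.17 TPM in Plcg2-/- and 2.76 ± 0.278 TPM in Plcg2+/+ libraries (2.06 ± 0.20, limma adjusted p = 0.00141). Maf, a large Maf factor of macrophages, averaged 76.1 ± 15.6 TPM in Plcg2-/- and 17.1 ± 3.99 TPM in Plcg2+/+ libraries (2.10 ± 0.22, limma adjusted p = 0.00177), and the small Maf gene Mafk rose by 0.76. Batf3, needed for a class of dendritic cells and named because it was the 1 gene that fell, averaged 4.60 ± 0.565 TPM in Plcg2-/- and 11.8 ± 4.02 TPM in Plcg2+/+ libraries (-1.16 ± 0.23, limma adjusted p = 0.0169). Fosb, a further Fos gene, stood at 0.019 to 0.039 TPM in Plcg2-/- and 0.0218 to 0.161 TPM in Plcg2+/+ libraries and was not tested. With Plcg2-/- 1 left out the limma adjusted p was 0.0636 for Batf, 0.0522 for Mafk and 0.0805 for Batf3, leaving 2 higher and 0 lower. Leaving out Plcg2-/- 3 or Plcg2+/+ 1 gave Batf3 a p of 0.066 or 0.0612 and 0 lower, and leaving out Plcg2-/- 2, or using replicate number as a block, gave 2 lower.

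Of the EGR corepressors, Nab1 rose and Nab2 did not pass. Nab1 stood at 51.0, 42.8 and 49.0 TPM in Plcg2-/- libraries, against 23.6, 14.6 and 26.8 TPM in Plcg2+/+ libraries, without overlap (log2 fold change 1.14 ± 0.22 SE, limma adjusted p = 0.0154). Leaving out Plcg2-/- 1 or Plcg2-/- 3 made the p of Nab1 0.0765 or 0.0616. Nab2, itself induced by EGR proteins, averaged 31.0 ± 1.54 TPM in Plcg2-/- and 36.8 ± 1.88 TPM in Plcg2+/+ libraries (SD, n = 3 each; -0.24, limma adjusted p = 0.131, and 0.0294 after median-of-ratios scaling). Egr4 was listed at 0 in 5 libraries and at 0.0396 TPM in Plcg2-/- 3.

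Among transcripts of the kinases known to switch these genes on, several were higher in Plcg2-/- microglia. Of 18 tested genes of the MAP kinase cascade, 6 rose and 0 fell, against 15.6% higher and 5.31% lower of all tested genes. At an unadjusted p below 0.05, 12 were higher and 0 lower, against 28.5% and 9.13% of all tested genes. The median log2 fold change of the 18 was 0.48, against 0.19 over all tested genes. Rps6ka1, a ribosomal S6 kinase downstream of ERK, rose by 0.76 ± 0.11 (SE), the ERK kinase gene Map2k1 by 0.64 ± 0.13 and Hras by 0.57 ± 0.12 (limma adjusted p = 0.00606, 0.0194 and 0.0195). The count of those that rose depended on scale and library. It was 2 after median-of-ratios scaling and 1 after quantile normalization, which also called 1 lower. Leaving out Plcg2-/- 1, Plcg2-/- 2 or Plcg2-/- 3 made it 1, 9 or 2, and leaving out Plcg2+/+ 1 or Plcg2+/+ 2 made it 1 or 4. Rps6ka1 alone of the 3 named kept its call in all 17 alternatives. With Plcg2-/- 1 left out the p of Map2k1 and Hras was 0.0829 and 0.0854, and with Plcg2+/+ 1 left out 0.0732 and 0.0702. With Plcg2-/- 3 left out it was 0.0733 for Map2k1, and with Plcg2+/+ 2 left out 0.0616 for Map2k1 and 0.0572 for Hras.

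Of 8 tested genes for serum response factor, its partners and CREB, 1 rose and 0 fell. Of all tested genes, 15.6% were called higher and 5.31% lower. At an unadjusted p below 0.05, 3 of the 8 were higher and 1 lower, against 28.5% and 9.13% of all tested genes. The 1 that rose was the ternary complex factor gene Elk1. Its mean was 7.15 ± 0.725 TPM in Plcg2-/- and 4.17 ± 0.69 TPM in Plcg2+/+ libraries (SD, n = 3 each, limma adjusted p = 0.0272). Elk1 lost its call in 8 of 17 alternatives, among them leaving out Plcg2-/- 1 (limma adjusted p = 0.107), Plcg2-/- 3 (0.0974), Plcg2+/+ 1 (0.0885) or Plcg2+/+ 2 (0.0833). Elk3 had a log2 fold change of -0.42 (limma adjusted p = 0.0721, and 0.0187 after median-of-ratios scaling). Creb1 had one of 0.44 and Mrtfa one of 0.31 (limma adjusted p = 0.0622 and 0.123).

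Among other immediate early genes, Npas4, Sgk1 and Rhob fell and Ier3 rose. That is 3 lower and 1 higher of 18 tested, against 5.31% lower and 15.6% higher of all tested genes. The median log2 fold change of the 18 was 0.03, against 0.19 over all tested genes. Npas4, an activity-induced factor best known from neurons, stood at 0.0301, 0.0916 and 0.0573 TPM in Plcg2-/- libraries, against 6.41, 7.60 and 4.08 TPM in Plcg2+/+ libraries. It was near 0 in every Plcg2-/- library and fell by 2.70 ± 0.24 (SE) on the log2(TPM + 1) scale (limma adjusted p = 0.00124). Npas4 reached the minimum mean of 1 TPM only through the Plcg2+/+ libraries, so a gene like it could enter the test only by differing. The kinase gene Sgk1 averaged 189 ± 30.1 TPM in Plcg2-/- and 479.8 ± 9.91 TPM in Plcg2+/+ libraries and fell by 1.35 (SD, n = 3 each; limma adjusted p = 0.00166). The small GTPase gene Rhob fell by 0.95 (limma adjusted p = 0.0154), and the early response gene Ier3 rose by 1.10 (limma adjusted p = 0.0352). Leaving out Plcg2-/- 1, Plcg2-/- 3 or Plcg2+/+ 1 gave Rhob a p of 0.0555, 0.0588 or 0.0618. Ier3 lost its call in 10 of 17 alternatives, among them leaving out Plcg2-/- 1 (limma adjusted p = 0.126), Plcg2-/- 2 (0.0596), Plcg2-/- 3 (0.119), Plcg2+/+ 1 (0.0938) or Plcg2+/+ 2 (0.0536). Leaving out Plcg2-/- 2 or Plcg2+/+ 3 gave 2 higher. With replicate number as a block 5 fell and 3 rose. At an unadjusted p below 0.05, 4 of the 18 were higher and 5 lower, against 28.5% and 9.13% of all tested genes. Ier2, Ier5 and Klf10, named after their values were seen, had log2 fold changes of 0.13, -0.0050 and 0.07 and did not pass. Others that did not pass lay further from 0 in both directions, among them Klf4 (1.42), Klf6 (0.51), Dusp1 (-0.88) and Myc (-0.83).

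Of 18 tested genes known from other cells as AP-1 or EGR targets, 8 fell and 3 rose, with a median log2 fold change of -0.72. Across all tested genes, 5.31% were called lower and 15.6% higher, with a median of 0.19. Mmp12, Dcstamp, Spp1 and Mmp13, which encode a macrophage elastase, a membrane protein needed for cell fusion, osteopontin and a collagenase, had the smallest p. Mmp13 stood at 18.5, 19.6 and 23.7 TPM in Plcg2-/- libraries, against 137, 90.1 and 115 TPM in Plcg2+/+ libraries, and fell by 2.40 ± 0.18 (SE) without overlap (limma adjusted p = 0.000922). Log2 fold changes were -4.57 for Mmp12, -4.02 for Dcstamp and -3.60 for Spp1. Besides these, Plau, Ctsk, Acp5 and Timp1 fell. Dcstamp (0.733 TPM in Plcg2-/- and 26.7 TPM in Plcg2+/+ on average) and Timp1 (0.247 TPM in Plcg2-/- and 1.93 TPM in Plcg2+/+), both among the 8, reached the minimum mean of 1 TPM only through the Plcg2+/+ libraries. The 3 that rose were the chemokine gene Ccl2 (log2 fold change 2.63), Nfatc1 (0.87) and the cytokine gene Il1b (1.94). Il1b lost its call in 11 of 17 alternatives, among them the replicate block (limma adjusted p = 0.0502) and leaving out Plcg2-/- 1 (0.118), Plcg2-/- 2 (0.0984), Plcg2-/- 3 (0.0855) or Plcg2+/+ 1 (0.0683). With Plcg2-/- 1 left out the p was 0.0542 for Nfatc1 and 0.0599 for Acp5, and 7 fell and 1 rose. With Plcg2-/- 3 left out it was 0.0524 for Acp5.

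**Figure D4:**
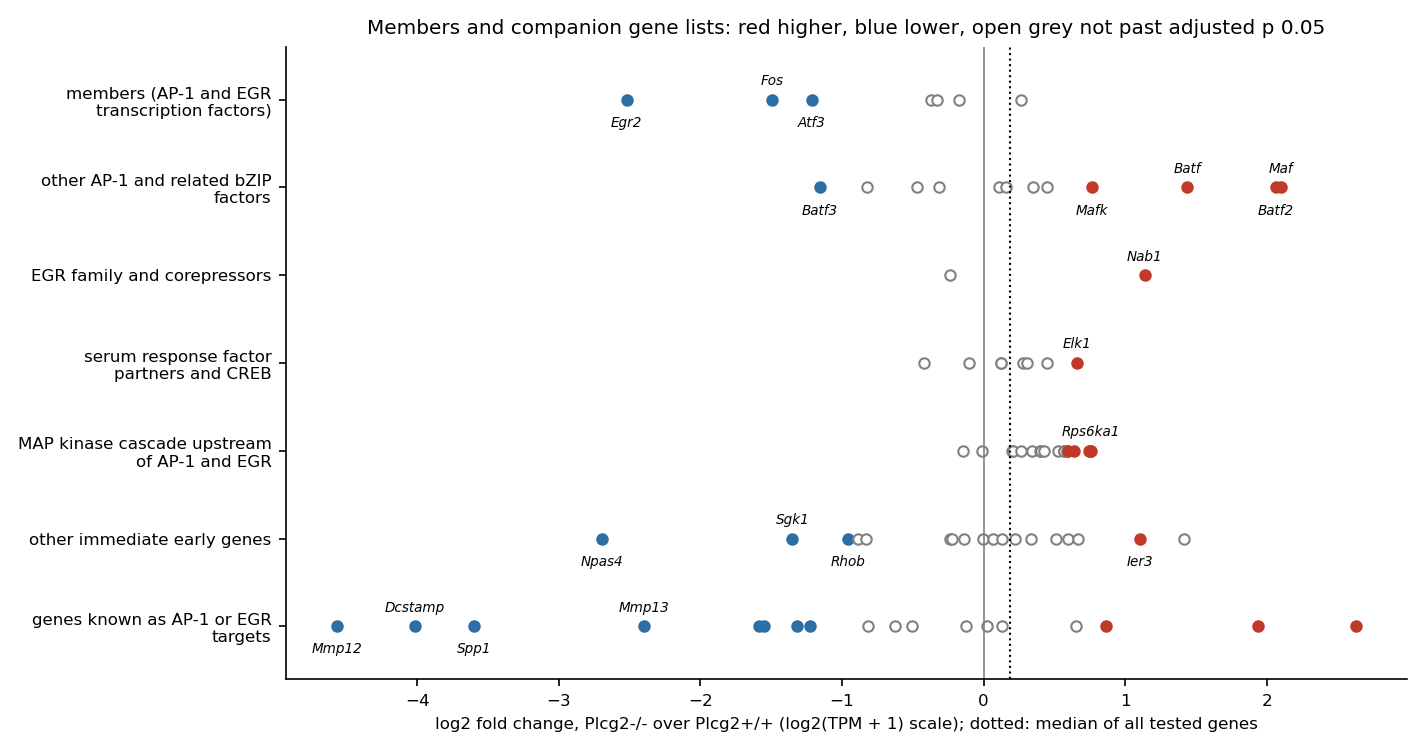
Log2 fold change of Plcg2-/- over Plcg2+/+ libraries from log2(TPM + 1) values (x axis) for each tested gene (points) in the 10 factors and the 6 companion lists (rows), with filled red points for genes called higher, filled blue for lower and open grey for the rest. The dotted line marks the median of all tested genes, 0.19. Of the 18 MAP kinase genes, 16 lie above 0, where most of all tested genes lie too. Egr2, Fos, Atf3, Npas4, Mmp12, Dcstamp and Spp1 lie far to the left of the dotted line.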

How the data were processed

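The values are TPM, in 1 table the authors deposited; all libraries sum to the same total, and sequencing depth cannot be read from them. Salmon 1.3.0, DESeq2 1.30.1, R 4.0.4 and the build GRCm38.p6 are named in the submitters' processing notes, without roles; the sources used here give neither the annotation release nor how TPM were summed per gene. Libraries were polyA-selected, per the labels' protocols. Titles give each library's genotype and number. Positions are from GENCODE M21 (GRCm38).

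TPM was put on the log2(TPM + 1) scale. All 12652 genes averaging 1 TPM or more entered a two-sided test with limma 3.58.1 (R 4.3.3), whose prior variance followed the mean level (4 residual and 2.97 prior degrees of freedom), with Benjamini-Hochberg adjustment over all of them and a threshold of 0.05. Fold changes on this scale understate the change of low genes. The fit was checked on simulated data. Tables and plots were made with Python 3.11.15, pandas 2.3.3, numpy 2.4.6 and matplotlib 3.10.9.

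The 10 genes and the 6 companion lists were chosen with earlier results of these data known. The text names Plcg2, all 10 genes, up to 4 tested genes per companion list with the smallest p, every EGR family or corepressor gene, and the 3 nearest profiles of each called gene; others named were chosen after their values were seen, and 1 gene that the rule names is not reported here. Deviations from the genotype means had correlations of 0.295, 0.193 and 0.147 in the 3 same-numbered pairs and -0.195 to 0.00369 in the others. Such deviations balance within a genotype, so these values cannot settle whether the numbers, which come from the titles, pair the libraries. The log2 Y-linked level differed within each same-numbered pair (Plcg2-/- first: 5.90 and 0.46, 0.83 and 6.76, 1.00 and 6.81). The main fit has no block, and the replicate number is used as a block only in alternatives.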

Additional observations from a re-analysis of the deposited data

How the results depend on the processing

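TPM carry no depth, so counting error is unknown, and with 3 libraries a group a p above the threshold does not show that a Jun gene did not differ. Egr2 and Fos kept direction and call in all 17 alternatives, and Atf3 kept its direction in all 17 and its call in 14. Counts are of genes called by limma. Over all genes, 1226 were higher with no filter on low values, 975 after median-of-ratios scaling, 959 with quantile-normalized values, 1223 when rescaled without mitochondrially encoded genes, and 941 with a Y-linked covariate; 1031 were lower after quantile normalization and 411 with the covariate. Quantile normalization called 6 of the 7 tested factors lower. Among EGR corepressors, 1 was lower after median-of-ratios scaling or quantile normalization. Among serum response factor partners and CREB, 0 were higher with no filter, median-of-ratios scaling or the covariate, and 1 was lower after median-of-ratios scaling, quantile normalization or rescaling. MAP kinase genes gave 2 higher after median-of-ratios scaling and, after quantile normalization, 1 higher and 1 lower. Other immediate early genes gave 0 higher with no filter, median-of-ratios scaling, quantile normalization, rescaling or the covariate. The replicate block gave 2483 higher and 815 lower over all genes. It changed no call among the 7 tested factors and lost that of Il1b (limma adjusted p = 0.0502). It gave 2 lower bZIP genes and 3 higher and 5 lower immediate early genes. The replicate block on median-of-ratios values gave 1104 higher and 1127 lower over all genes, 3 lower bZIP genes, 1 lower EGR corepressor, 0 higher and 1 lower serum response factor partner, 3 higher MAP kinase genes, and 2 higher and 6 lower immediate early genes.

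Leaving out 1 library at a time, 559 to 2106 genes were higher and 276 to 644 lower. Of the 7 tested factors, 2 to 3 were lower. The companion lists had 2 to 4 higher and 0 to 2 lower (bZIP), 0 to 1 higher (EGR corepressors), 0 to 1 higher (serum response factor partners), 1 to 9 higher (MAP kinases), 0 to 2 higher and 2 to 4 lower (immediate early genes), and 1 to 3 higher and 7 to 9 lower (targets). The log2 fold change of Fosl2 ranged from -0.081 with Plcg2+/+ 2 left out (limma adjusted p = 0.799) to 0.52 with Plcg2+/+ 3 left out; the cause was not tested.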

Other observations

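Heat shock and chaperone genes, a list added after the other values were seen, are known to be induced by stress of cells and tissue. Of 10 tested genes 3 were higher and 1 lower in Plcg2-/- microglia, with a median log2 fold change of 0.04. Across all tested genes, 15.6% were called higher and 5.31% lower, with a median of 0.19. The stress-inducible Hspa1a stood at 0.742, 1.29 and 1.201 TPM in Plcg2-/- libraries and at 0.904, 1.25 and 0.926 TPM in Plcg2+/+ libraries, and Hspa1b at 1.25, 0.962 and 1.55 TPM in Plcg2-/- libraries and at 1.06, 2.08 and 1.02 TPM in Plcg2+/+ libraries. Both were near 1 TPM and overlapped between genotypes. The constitutive chaperone gene Hspa8 and its partners Dnaja1 and Dnajb1 had log2 fold changes of 0.76, 0.64 and 0.70, and Hsp90aa1 one of -0.49. Hspa8 and Hsp90aa1 each lost their call in 8 of 17 alternatives, Dnajb1 in 6 and Dnaja1 in 2.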
